A study of Mus musculus with 4 samples.

Results

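The comparison set the dorsal raphe nucleus of wild-type mice after repeated forced swimming beside that of wild-type mice kept without stress. It rests on 2 arrays, chosen by their titles: FS-stressed WT, from male C57BL/6J mice aged 10 weeks that swam for 6 min on each of 4 days and were dissected 12 h after the last swim, and non-stressed WT, from mice of that strain, sex and age that did not swim. Each array carried RNA pooled from 5 mice, so mouse-to-mouse spread cannot be seen, no value has a replicate error, and no difference could be tested. The rest of the series is 2 further arrays of swum mice, FS-stressed D2R-KO, which lack the dopamine D2 receptor, and FS-stressed D2LR-KO, which lack its long form, and their values are given only to place the wild-type ones. The number of arrays limits the precision of every value. Of 16383 genes measured, 15643 were detected on at least 1 of the WT arrays and compared, 14956 of them on both and 687 on 1. The comparison asks which transcripts of the raphe differ after forced swim stress in mice with intact D2 receptors.

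Forced swimming is an inescapable stressor that activates the hypothalamic, pituitary and adrenal axis and releases glucocorticoids, which act on brain cells through the glucocorticoid receptor. The dorsal raphe nucleus holds serotonergic neurons that project to the forebrain, among glutamate, GABA and dopamine neurons and glia. Cells under stress are known to draw on a few shared programmes: immediate early genes, chaperones of the cytosol, the unfolded protein response of the endoplasmic reticulum, and genes induced by glucocorticoids.

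Values of 2 kinds are given. Levels are the authors' deposited intensities, on a linear scale on which the median of each array is 25. Folds are FS-stressed WT over non-stressed WT on the log2(signal + 50) scale, so that they understate the differences of dim genes. Levels and folds rest on different scaling of the arrays. For genes at or above the median signal of genes compared, the median log2 difference was -0.24 by level and 0.001 by fold. Levels and list sums of bright genes thus lean lower in FS-stressed WT than their folds do. A value in brackets after a gene, or given for it with no array named, is its log2 fold. Counts over all genes were taken at 2-fold, and those over gene lists at 1.5-fold. Some counts are given as holding in all 5 other settings, which means at least 1.5-fold the same way in the values as deposited, after median scaling, under local background (the brightness around each spot in place of the blank spots), after centring by array block and after cyclic loess.

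The FS-stressed WT array stood apart from the other 3, and every difference below includes that array. Over all 16383 genes measured, with no filter on signal, the SD of the log2 difference between FS-stressed WT and non-stressed WT was 0.412, between FS-stressed WT and D2R-KO it was 0.454, and between FS-stressed WT and D2LR-KO 0.436. Between D2R-KO and non-stressed WT it was 0.218, between D2LR-KO and non-stressed WT 0.208, and between D2R-KO and D2LR-KO 0.169. The knockout comparisons use the same non-stressed WT array, and they held 18 genes 2-fold higher and 50 lower in D2R-KO, and 17 higher and 48 lower in D2LR-KO. Repeated control spots gave an SD of 0.128 and 0.119 for the difference between the WT arrays (24 spots each), which covers spots and not mice or labellings. No comparison without the FS-stressed WT array can be made for wild-type mice, and the part of stress and of this single array in the differences cannot be told apart.

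Olfactory receptor genes, best known from the sensory neurons of the nose, are mostly dim here. Of 654 measured, 34 were at least 1.5-fold higher in FS-stressed WT than in non-stressed WT and 1 lower. Of the 518 of them that were compared, that is 6.56% higher, beside 7.27% of all genes compared, and 0.193% lower, beside 8.12%. The higher share is near that of all genes, but dim genes differed less here, so it is not a comparison at like signal. The D2R-KO array had 0 higher and 1 lower when set against the same non-stressed array, and D2LR-KO had 0 in either direction. The median log2 difference of the 654 was 0.02 in FS-stressed WT and closer to 0 on both knockout arrays. Olfr481 had an intensity of 348 in FS-stressed WT, 126 in D2R-KO, 119.8 in D2LR-KO and 115 in non-stressed WT. The vomeronasal receptor V1ra3 had 168 in FS-stressed WT, 43.4 in D2R-KO, 49.9 in D2LR-KO and 51 in non-stressed WT.

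**Figure D1:**
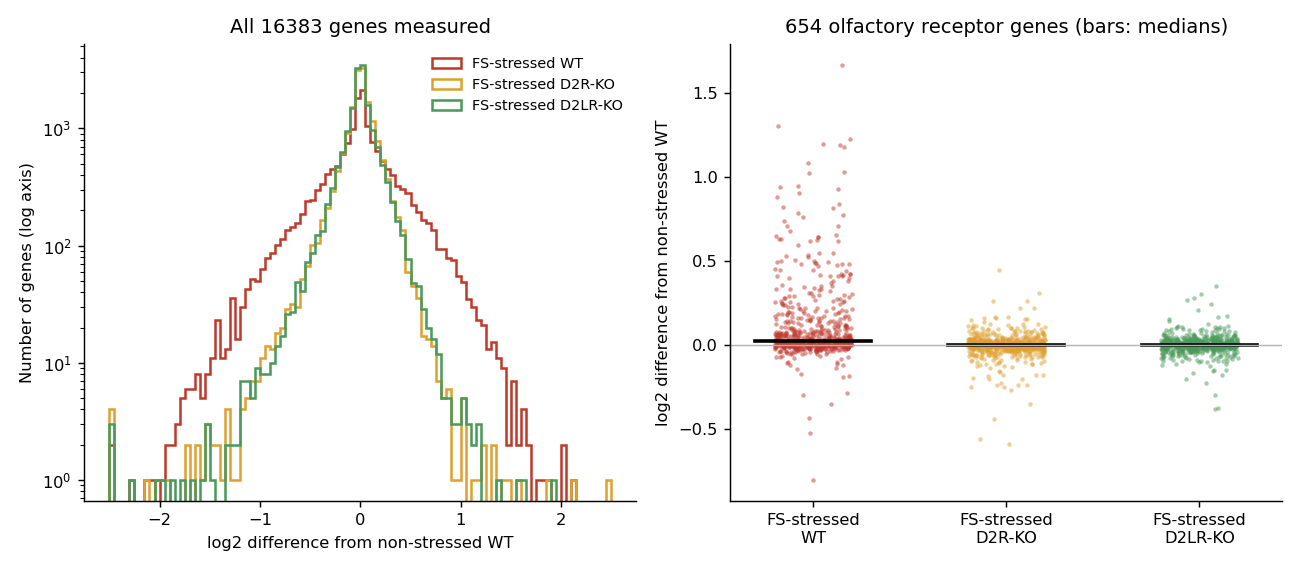
Left, number of genes (vertical axis) by log2 difference from non-stressed WT (horizontal axis) for each of the 3 arrays of swum mice, over all 16383 genes measured, with a log vertical axis and differences beyond 2.5 drawn at the edge. Right, the same log2 difference for all 654 olfactory receptor genes measured (points) with its median (bars), which is near 0 on each array; 34 points lie at least 1.5-fold up in FS-stressed WT and 0 on the knockout arrays. The FS-stressed WT outline on the left is the widest.

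Differences also moved with the place of a probe on the array. Among genes at or above the median signal of genes compared, taken on the brighter of the 2 WT arrays, 5.08% of those in rows 6 to 10 of their block were 2-fold higher and 3.48% lower, against 1.53% higher and 5.14% lower in rows 1 and 2. Probes whose names begin with M400 had 5.14% higher and 3.01% lower, and those that begin with M200 had 1.82% higher and 4.56% lower. The medians of the 24 blocks lay between -0.03 and 0.07. The part of row and probe series in the differences of single genes was not tested.

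A second probe of the same gene gives a check within these 2 arrays, and it often gave another value. For 44 genes with a pair of probes at or above the median signal, the log2 folds of the pair differed by a median of 0.448. In 11 of these genes the brighter probe differed at least 1.5-fold, and the second probe had the same direction in 6 and reached 1.5-fold in 1. That 1 was Hnrnpa3, an RNA-binding protein of splicing, with log2 folds of -0.95 and -0.86. Actb, cytoplasmic actin, had 0.94 and 0.53. Ppargc1a, a coactivator of mitochondrial genes, had -1.37 and 0.20, Cbx3, a heterochromatin protein, -1.45 and 0.51, and the protocadherin Pcdh9 -1.01 and 0.70. Different probes can lie in different transcripts of a gene, and the sources used here do not say which ones these probes read.

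**Figure D2:**
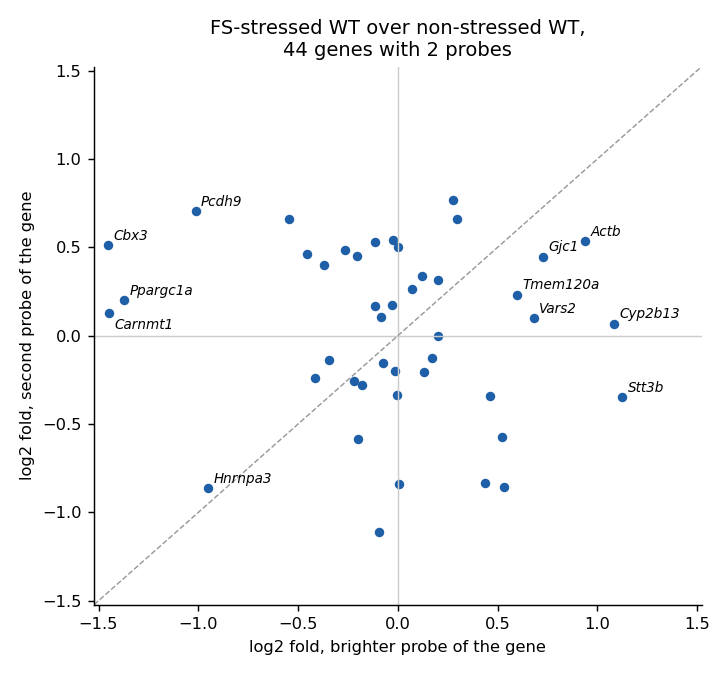
Log2 fold of FS-stressed WT over non-stressed WT by the brighter probe (horizontal axis) and by the second probe (vertical axis) for 44 genes, each point 1 gene. Genes whose brighter probe differed at least 1.5-fold are named, and the dashed line marks equal folds; Hnrnpa3 lies near the line at -0.95 and -0.86, and Cbx3 far from it at -1.45 and 0.51.

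The label dorsal raphe nucleus can be set beside markers of serotonergic neurons, of which some were dim and some bright. Tph2, the enzyme that sets the rate of serotonin synthesis in neurons, had an intensity of 10.7 in FS-stressed WT, 265 in D2R-KO, 152 in D2LR-KO and 31.4 in non-stressed WT. Slc6a4, the serotonin transporter, had 6.8 in FS-stressed WT, 89.6 in D2R-KO, 43.5 in D2LR-KO and 11.6 in non-stressed WT. Both markers were thus lowest in FS-stressed WT and next lowest in non-stressed WT. Of 19 serotonergic neuron genes compared, 1 was 1.5-fold lower (Tph2, log2 fold -0.63, which was 0.08 under local background) and none higher. The list summed to 5778 in FS-stressed WT and 6283 in non-stressed WT, and Tph2 and Slc6a4 were a small part of these sums. A narrower list of 9 serotonergic markers summed to 1968 in FS-stressed WT, 3529 in D2R-KO, 3734 in D2LR-KO and 2407 in non-stressed WT. Slc18a2, the vesicular monoamine transporter, had 718 in FS-stressed WT and 702 in non-stressed WT. Htr1a, the serotonin 1A receptor that restrains firing of raphe neurons, had 22.6 in FS-stressed WT and 28.7 in non-stressed WT, and its log2 fold was -0.16. None of 13 serotonin receptor genes reached 1.5-fold. Drd2, the D2 receptor, had 43.8 in FS-stressed WT and 26.8 in non-stressed WT, a log2 fold of 0.43.

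Markers of neighbouring tissue differed between the WT pools as well. Ttr, transthyretin of the choroid plexus, had 5720.2 in FS-stressed WT, 20.3 in D2R-KO, 193 in D2LR-KO and 12884 in non-stressed WT. The 10 choroid plexus and ependyma genes summed to 5913 in FS-stressed WT and 13259 in non-stressed WT, and 5 of them were 1.5-fold lower (50%) and none higher. Among all genes compared 8.12% were lower, and among those at or above the median signal 15.1%. The 8 pons and medulla markers summed to 734 in FS-stressed WT, 5232 in D2R-KO, 4337 in D2LR-KO and 2622 in non-stressed WT. Between the WT arrays, 3 of the 8 were lower in FS-stressed WT (37.5%) and none higher. Most of each WT sum was 1 gene, Spp1, osteopontin, with 645 in FS-stressed WT and 2454 in non-stressed WT. Hoxb5, a homeobox gene of the hindbrain, had 4.2 in FS-stressed WT and 50.6 in non-stressed WT. Cortical and hippocampal markers went both ways, with 2 of 9 higher and 1 lower. Nrgn, neurogranin, had 1094 in FS-stressed WT and 618 in non-stressed WT, while the adhesion molecule Icam5 had 220.3 in FS-stressed WT and 794 in non-stressed WT. Of 12 meningeal and fibroblast genes, 5 were lower (41.7%) and none higher. The 12 summed to 694 in FS-stressed WT and 1338 in non-stressed WT. The part of dissection in the results below was not tested, and in bulk tissue fewer cells of a type and less RNA per cell cannot be told apart.

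Across all 15643 genes, 229 were at least 2-fold higher in FS-stressed WT (1.46%) and 336 lower (2.15%). At 1.5-fold 1137 were higher (7.27%) and 1270 lower (8.12%). Folds grew with signal, since the SD of the log2 fold was 0.04 in the dimmest of 10 equal groups of genes and 0.58 in the brightest. The shares to read a list against are therefore those of brighter genes: 14.2% higher and 15.1% lower among the 7822 genes at or above the median signal, and 16.1% higher and 17% lower among the brightest 3911. The split between higher and lower depended on the scaling. Of the genes called at 2-fold, 40.5% were higher, against 3.25% after median scaling, which moved the median log2 fold of the 7822 brighter genes to -0.34, and 56.5% under local background.

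**Figure D3:**
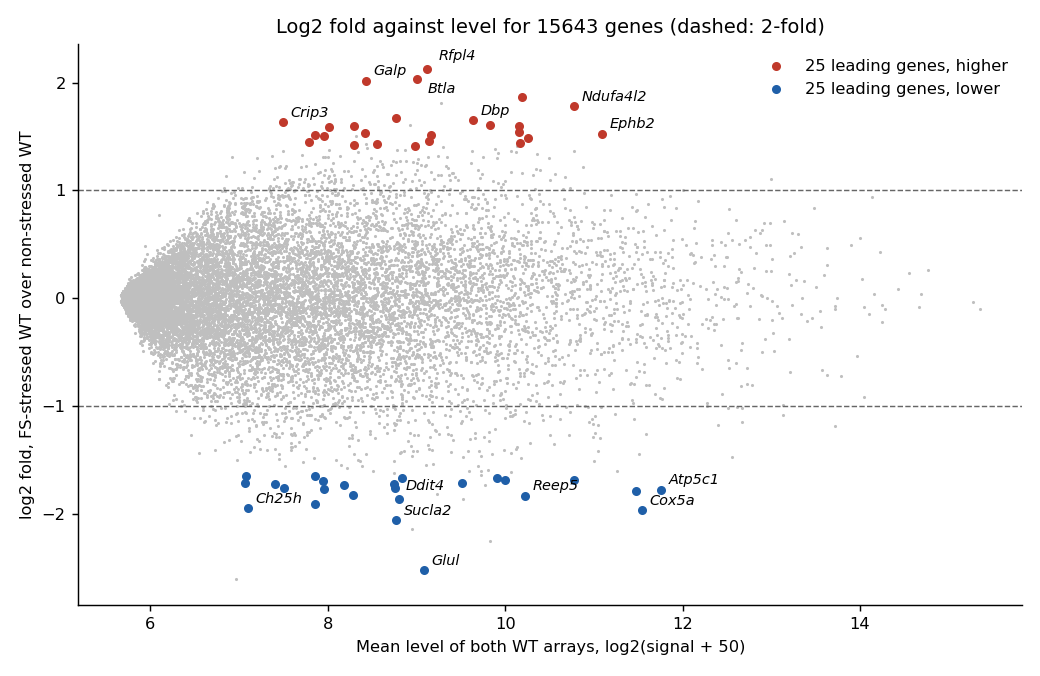
Log2 fold of FS-stressed WT over non-stressed WT (vertical axis) against the mean level of both WT arrays on the log2(signal + 50) scale (horizontal axis) for 15643 genes, with the 25 leading genes in each direction coloured and some named. Dashed lines mark 2-fold, which 229 genes passed upwards and 336 downwards.

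The endoplasmic reticulum stress response was on the low side in FS-stressed WT. Of 29 genes, 9 were at least 1.5-fold lower and none higher, which is 31% lower beside 8.12% among all genes and 15.1% among those at or above the median signal, and 7 of the 9 held in all 5 other settings. The list median was -0.12. Hspa5, the chaperone BiP that senses and binds unfolded proteins, had an intensity of 587 in FS-stressed WT, 1764 in D2R-KO, 1432 in D2LR-KO and 1975 in non-stressed WT, so that FS-stressed WT was the lowest of the 4 arrays and 2.66-fold below non-stressed WT. Its cochaperones Dnajb9 and Dnajb11 were low as well, while Dnajc3 of the same list differed little (-0.10). Dnajb9 had 27.9 in FS-stressed WT and 92.3 in non-stressed WT, and Dnajb11 had 121 in FS-stressed WT and 262 in non-stressed WT. Of the transcription factors of the pathway, Atf4 had 369 in FS-stressed WT and 1006 in non-stressed WT, a log2 fold of -1.06. Ddit3, the proapoptotic factor CHOP, had 164 in FS-stressed WT and 382 in non-stressed WT, a log2 fold of -0.87. The endoplasmic reticulum proteins Sdf2l1 and Creld2 had log2 folds of -0.86 and -0.75. Sel1l, of the degradation machinery, and Calr, calreticulin, both had -0.59 and did not hold in all 5 other settings. Hsp90b1, the endoplasmic reticulum member of the Hsp90 family, was at -0.16. Some members lay above 0 without reaching 1.5-fold, such as Herpud1 (0.52), Hyou1 (0.17), Chac1 (0.16) and Asns (0.15).

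The endoplasmic reticulum stress element is the promoter motif through which the factors NF-Y and ATF6 are known to induce these chaperones, and it is shown because it tells apart members of the list by sequence rather than by level. It was searched as CCAAT, any 9 bases and CCACG, on both strands, in windows of 250 bases before to 50 bases after the gene start from RefSeq (GRCm38.p6). It stood in 39 of 32851 windows (0.119%) and in 8 of the 26 list members that had a window. Among those 8, 3 were 1.5-fold lower (Hspa5, Creld2 and Calr), and among the 18 without it 6 were. The windows of these 3 genes follow, with that of Hsp90b1, which has the element on either strand and differed little. Each is written 5′ to 3′ on the gene's strand, with the element in capitals.
Hspa5, chr2:34771840-34772139, + strand: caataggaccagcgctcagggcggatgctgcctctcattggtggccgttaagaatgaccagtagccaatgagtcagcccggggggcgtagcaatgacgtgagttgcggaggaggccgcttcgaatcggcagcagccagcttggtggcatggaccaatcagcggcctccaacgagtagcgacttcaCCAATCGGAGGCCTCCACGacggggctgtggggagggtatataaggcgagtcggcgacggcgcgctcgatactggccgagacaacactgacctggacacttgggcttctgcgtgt
Creld2, chr15:88819396-88819695, + strand: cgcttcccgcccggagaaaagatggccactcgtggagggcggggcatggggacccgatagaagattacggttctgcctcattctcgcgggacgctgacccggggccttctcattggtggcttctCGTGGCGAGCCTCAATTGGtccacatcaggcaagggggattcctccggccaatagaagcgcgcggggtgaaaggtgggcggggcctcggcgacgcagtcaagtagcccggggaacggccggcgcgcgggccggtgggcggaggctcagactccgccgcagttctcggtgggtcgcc
Calr, chr8:84846882-84847181, - strand: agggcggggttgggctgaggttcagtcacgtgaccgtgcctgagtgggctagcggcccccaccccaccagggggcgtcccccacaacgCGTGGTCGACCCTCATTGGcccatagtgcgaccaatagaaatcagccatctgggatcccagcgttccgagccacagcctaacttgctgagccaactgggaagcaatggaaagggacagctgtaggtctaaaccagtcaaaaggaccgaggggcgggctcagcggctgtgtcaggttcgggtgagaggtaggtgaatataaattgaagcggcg
Hsp90b1, chr10:86705395-86705694, - strand: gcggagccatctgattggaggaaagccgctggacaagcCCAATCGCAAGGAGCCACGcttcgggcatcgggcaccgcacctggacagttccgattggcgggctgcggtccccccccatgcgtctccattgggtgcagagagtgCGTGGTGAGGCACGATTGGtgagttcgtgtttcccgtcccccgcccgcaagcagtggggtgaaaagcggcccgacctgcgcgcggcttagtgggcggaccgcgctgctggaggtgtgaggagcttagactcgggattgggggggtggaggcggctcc

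Of 20 heat shock proteins and cochaperones, 7 were 1.5-fold lower and none higher in FS-stressed WT, and 13 lay within 1.5-fold. That is 35% lower, beside 8.12% among all genes and 15.1% among those at or above the median signal, and 3 of the 7 held in all 5 other settings. The list median was -0.32, which was -0.10 under local background. Chordc1, which works with Hsp90, had an intensity of 27.9 in FS-stressed WT, 178 in D2R-KO, 152 in D2LR-KO and 168 in non-stressed WT, and the 3 arrays other than FS-stressed WT lay close together. Dnajb1, an Hsp70 cochaperone induced by heat, had 364 in FS-stressed WT, 504 in D2R-KO, 479 in D2LR-KO and 921 in non-stressed WT. The cochaperone Dnaja1 had 633 in FS-stressed WT and 1328 in non-stressed WT. Stip1, which links Hsp70 to Hsp90, had a log2 fold of -0.95 (1.15 under local background), and Hspb1, the small heat shock protein Hsp27, -0.70. Dnajc7 at -1.87 and Dnajb4 at -1.09 turned to 0.75 and 1.81 under local background. The heat shock element, searched as GAA, 2 bases, TTC, 2 bases and GAA on both strands, stood in 0.603% of all windows and in 1 of 15 members that had a window, Chordc1.

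Immediate early genes, which neurons and other cells switch on within minutes of stimulation, lay on the low side 12 h after the last swim. Of 31 compared, 9 were 1.5-fold lower and 1 higher, with a median of -0.22, and 6 of the 9 held in all 5 other settings. The lower share is 29%, beside 8.12% among all genes and 15.1% among those at or above the median signal. Fos, a subunit of the factor AP-1, had 32 in FS-stressed WT, 108 in D2R-KO, 124 in D2LR-KO and 156 in non-stressed WT, so the non-stressed array was the highest of the 4. Egr1, a zinc finger factor of plasticity, had 71.9 in FS-stressed WT, 119 in D2R-KO, 77.2 in D2LR-KO and 166 in non-stressed WT. Nr4a1, an orphan nuclear receptor, had 41.9 in FS-stressed WT, 46.3 in D2R-KO, 29.6 in D2LR-KO and 108 in non-stressed WT. These 3 were brightest in non-stressed WT among the 4 arrays. The matricellular gene Ccn1 had 4.5 in FS-stressed WT and 61.6 in non-stressed WT. Of the phosphatases that switch off MAP kinases, Dusp6 had a log2 fold of -1.41 and Dusp1 of -0.96, and Ier2 had -1.15. Fosb was the 1 higher member, with 56.2 in FS-stressed WT and 27.5 in non-stressed WT, a log2 fold of 0.69. Other members lay above 0 without reaching 1.5-fold, such as Sik1 (0.58), Dusp4 (0.35) and Homer1 (0.33). The cyclic AMP response element (TGACG followed directly by TCA, on either strand), the site of the factor CREB, stood in 1.79% of all windows and in 3 of 23 members with a window (Dusp1, Btg2 and Maff), whose log2 folds were -0.96, -0.61 and -0.19.

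Glucocorticoid-induced genes lay on both sides. Of 19 compared, 6 were 1.5-fold lower and 3 higher, with a median of -0.08, and 4 of the lower and none of the higher ones held in all 5 other settings. The lower share is 31.6%, beside 8.12% among all genes and 15.1% among those at or above the median signal. The higher share is 15.8%, beside 7.27% and 14.2%. Tsc22d3, the glucocorticoid-induced leucine zipper, had 208 in FS-stressed WT, 1016 in D2R-KO, 701 in D2LR-KO and 799 in non-stressed WT. Ddit4, an inhibitor of the growth kinase mTORC1, had 94.4 in FS-stressed WT, 90.0 in D2R-KO, 68.8 in D2LR-KO and 442 in non-stressed WT. For Tsc22d3 FS-stressed WT was the array that differed, and for Ddit4 it was non-stressed WT. Nfkbia, the inhibitor of NF-kappaB, had 212 in FS-stressed WT, 349.7 in D2R-KO, 296 in D2LR-KO and 602 in non-stressed WT. Sgk1, the serum and glucocorticoid-regulated kinase, had 226 in FS-stressed WT and 691 in non-stressed WT, and its log2 fold of -1.25 turned to 0.86 under local background. Fkbp5, the chaperone that dampens the glucocorticoid receptor, had 43.5 in FS-stressed WT and 50.7 in non-stressed WT, a log2 fold of -0.08. On the higher side, Gpd1 was at 1.0 (-0.29 under local background), the metallothionein Mt2 at 0.72 and Arrdc2 at 0.67 (-0.09 under local background). Nr3c1, the glucocorticoid receptor itself, had 14.7 in FS-stressed WT and 36.9 in non-stressed WT, and its log2 fold of -0.61 was 0.23 under local background. Of 13 genes of the corticotropin-releasing hormone, vasopressin and oxytocin systems, 1 was higher, Avp, with 104 in FS-stressed WT and 62.2 in non-stressed WT.

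The circadian clock list had 2 of 20 genes higher and 2 lower, with a median of 0.05. Dbp, a clock output factor that binds D-box elements, had 644 in FS-stressed WT, 551 in D2R-KO, 428 in D2LR-KO and 236 in non-stressed WT, so all 3 arrays of swum mice lay above the non-stressed one. Arntl, the clock activator BMAL1, had 40.6 in FS-stressed WT, 96.8 in D2R-KO, 95.4 in D2LR-KO and 108 in non-stressed WT. Nfil3, which opposes Dbp at the same sites, had a log2 fold of -0.66 and the period gene Per1 of 0.57. The sources used here do not give the hour of either dissection. In the hypoxia list 2 of 15 were higher and 2 lower, with Ndufa4l2, a mitochondrial protein induced by low oxygen, at 1484 in FS-stressed WT and 528 in non-stressed WT, and the oxygen sensor Egln1 at 16.8 in FS-stressed WT and 55.5 in non-stressed WT. Among 18 genes of oxidative stress defence 4 were lower and none higher: Sod2, the superoxide dismutase of mitochondria (-1.38), and the peroxiredoxins Prdx3 (-0.90), Prdx6 (-0.60, but 5.93 under local background) and Prdx1 (-0.60).

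Nuclear genes for mitochondrial energy metabolism held both higher and lower members. Of 29 subunits of respiratory complexes II to IV and cytochrome c, 10 were lower (34.5%) and 4 higher, of 16 ATP synthase subunits 5 were lower and 1 higher, of 24 tricarboxylic acid cycle genes 5 were lower and 2 higher, and of 35 complex I subunits 4 were lower and 0 higher. These lists lie among bright genes, and 17% of the brightest 3911 were lower. Cox5a, a nuclear subunit of cytochrome c oxidase, had an intensity of 685 in FS-stressed WT, 4633 in D2R-KO, 4702 in D2LR-KO and 3465 in non-stressed WT. Another subunit of that complex, Cox7c, lay the other way, with 7478 in FS-stressed WT, 5825 in D2R-KO, 5098 in D2LR-KO and 4884 in non-stressed WT. Subunits of 1 enzyme thus differed in opposite directions between the same 2 arrays. In ATP synthase, the gamma subunit Atp5c1 had 841 in FS-stressed WT and 3711 in non-stressed WT, and the delta subunit Atp5d had 4913 in FS-stressed WT and 3693 in non-stressed WT. Sucla2, the ATP-forming subunit of succinyl-CoA synthetase, had 84.2 in FS-stressed WT, 614 in D2R-KO, 543 in D2LR-KO and 499.9 in non-stressed WT. Its neighbours in the cycle were split, with malate dehydrogenase Mdh2 at a log2 fold of -1.02 and the isocitrate dehydrogenase subunit Idh3g at 1.0. Uqcrfs1, the Rieske iron-sulphur protein of complex III, was at -1.62 and cytochrome c, Cycs, at -1.34. In complex I, Ndufb4 was at -1.32, Ndufs6 at -0.95 and Ndufs3 at -0.79.

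The remaining mitochondrial lists and the lysosomal pump held members in both directions, apart from glycolysis. Among genes at or above the median signal, 14.2% were higher and 15.1% lower. Of 77 mitochondrial ribosomal proteins, 5 were lower and 4 higher (median -0.05), led by Mrpl1 at -1.25 and Mrpl22 at 0.71. Of 18 subunits of the import complexes, 6 were lower and 1 higher, with Timm29 at -1.25, Tomm22 at -0.99 and Tomm70a at 0.69. The list median was 0.01, which was -0.50 under local background. Of 17 glycolytic genes, 2 were lower and none higher. Gapdh, often used as a reference, had 61.8 in FS-stressed WT and 124 in non-stressed WT by its probe. Actb, another common reference, had 12773 in FS-stressed WT and 7713 in non-stressed WT. The vacuolar ATPase, the proton pump of lysosomes and synaptic vesicles, had 6 of 22 subunits lower and 2 higher, with the lowest median of these 4 lists at -0.33. Atp6ap2 was at -1.01 and Atp6v1h at -0.87, while Atp6v0d2 was at 1.11.

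Of 53 cytosolic ribosomal proteins, 14 were lower (26.4%) and 3 higher, with a median of -0.19, and 7 of the 14 held in all 5 other settings. Among the brightest 3911 genes 17% were lower, and among those at or above the median signal 15.1%. Their median was -0.02 under local background. Over the same non-stressed array, 1 of the 53 was lower in D2R-KO and 0 in D2LR-KO. Rpl24 of the large subunit had 789.6 in FS-stressed WT, 2993 in D2R-KO, 2994 in D2LR-KO and 2786 in non-stressed WT. Rps9 of the small subunit had 5853 in FS-stressed WT, 5618 in D2R-KO, 6135 in D2LR-KO and 4712 in non-stressed WT. Among 46 translation initiation factors, 7 were lower (15.2%, near the share of brighter genes) and 3 higher. They ran from Eif3e, a subunit of the scaffold eIF3, at -1.65 to Eif2b1, of the exchange factor eIF2B, at 0.77. Of 14 poly(A)-binding proteins and regulators, 4 were lower and 1 higher. Paip2, which restrains poly(A)-binding protein, was lowest at -2.26 and turned to 1.71 under local background. Among 24 SRSF and hnRNP splicing factors, 6 were lower (25%) and none higher, with Srsf7 at -1.36 and Hnrnpll at -1.29. The 29 aminoacyl-tRNA synthetases had 3 lower (10.3%, below the share of brighter genes) and 1 higher. The 3 lower ones, Lars2 (-1.08), Fars2 (-0.84) and Cars2 (-0.82), are the mitochondrial enzymes for leucine, phenylalanine and cysteine. The higher one, Vars2 (0.68), is the mitochondrial enzyme for valine, and its second probe had a log2 fold of 0.099.

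Protein folding, turnover and transport genes gave similar mixtures, to be read beside 14.2% higher and 15.1% lower among genes at or above the median signal. Of 36 proteasome subunits, 4 were lower and 3 higher, from Psmc6 at -0.99 to Psma3 at 0.76. Of 26 ubiquitin-conjugating enzymes, 3 were lower and 4 higher, from Ube2k at -1.24 to Ube2c, which acts in mitosis, at 1.23. The 10 chaperonin and prefoldin subunits had 2 lower, Cct7 and Pfdn4. Among 15 subunits of protein phosphatase 2A, the regulatory subunit Ppp2r5e had 94.2 in FS-stressed WT and 476 in non-stressed WT, and the regulatory subunit Ppp2r2a had 284 in FS-stressed WT and 144 in non-stressed WT, so that 2 alternative subunits of the enzyme lay in opposite directions. Of 55 Rab GTPases, 6 were lower and 4 higher. Rab31, of endosomal transport, was at -0.99 and Rab2a, of transport between endoplasmic reticulum and Golgi, at 0.92. Rab14 at -1.12 turned to 3.95 under local background. Of 32 vesicle tethering subunits, 6 were lower and 1 higher. Vps50, which recycles endosomal cargo, had 38.6 in FS-stressed WT, 292 in D2R-KO, 188 in D2LR-KO and 237 in non-stressed WT.

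Among transmitter genes other than those of serotonin, a few members of each list passed 1.5-fold. In the glutamate and GABA handling lists they were lower, and in the catecholamine and acetylcholine lists higher. Of 13 genes of glutamate release, uptake and the glutamine cycle, 4 were lower (30.8%) and none higher. Among all genes 8.12% were lower, and among those at or above the median signal 15.1%. Glul, glutamine synthetase of astrocytes, had 90.6 in FS-stressed WT, 474 in D2R-KO, 84.5 in D2LR-KO and 729 in non-stressed WT, so it was as low on the D2LR-KO array as in FS-stressed WT. The other lower members were the glutamine transporter Slc38a2 (-0.91), the neuronal glutamate transporter Slc1a1 (-0.65) and Slc17a6, the vesicular glutamate transporter, at -2.14, which turned to 0.93 under local background. Of 7 genes for GABA synthesis, transport and breakdown, 3 were lower (42.9%) and none higher. The lowest, the transporter Slc6a13 (-1.07), also belongs to the meningeal and fibroblast list above, and Aldh5a1 was at -0.87. The GABA transporter Slc6a11 had 112 in FS-stressed WT and 234 in non-stressed WT. Gad2, which makes GABA, did not reach 1.5-fold, with 301 in FS-stressed WT and 504 in non-stressed WT (log2 fold -0.40). Among receptors, 2 of 15 GABA receptor subunits were lower, Gabra3 (-1.19) and Gabrb2 (-0.60), and none of 16 ionotropic or 4 metabotropic glutamate receptors reached 1.5-fold. The glycine list had 2 of 10 lower, the receptor subunit Glra2 (-1.14) and the scaffold Gphn (-0.63).

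Of 12 dopamine and noradrenaline genes, 3 were higher (25%) and none lower, and none of the 3 held in all 5 other settings. Among all genes 7.27% were higher, and among those at or above the median signal 14.2%. Th, tyrosine hydroxylase, had 1156 in FS-stressed WT, 773 in D2R-KO, 814 in D2LR-KO and 897 in non-stressed WT. Dbh, which makes noradrenaline, had 62.1 in FS-stressed WT and 35.7 in non-stressed WT, and the dopamine neuron factor Pitx3 had 75.7 in FS-stressed WT and 39.9 in non-stressed WT (log2 fold 0.73, but -0.10 under local background). Of 11 acetylcholine genes, 3 were higher (27.3%) and none lower, and the list median was -0.004. The higher ones were Chat, which makes acetylcholine (0.84), the muscarinic receptor Chrm1 (0.66) and Ache, which breaks acetylcholine down (0.64, but -0.69 under local background). None of these 3 held in all 5 other settings. Of 29 neuropeptide precursors, 3 were higher and 3 lower. Galp, galanin-like peptide, had 306 in FS-stressed WT, 55.7 in D2R-KO, 66.5 in D2LR-KO and 71.1 in non-stressed WT. Cartpt, the CART peptide, had 452 in FS-stressed WT, 158 in D2R-KO, 117 in D2LR-KO and 275 in non-stressed WT. The lower ones were the enkephalin precursor Penk (-0.92), Tac1, which encodes substance P (-0.89), and the C-type natriuretic peptide Nppc (-0.74).

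Synaptic and excitability genes differed in few members. Of 28 genes of vesicle release, 3 were lower and 3 higher. Snap25, a SNARE protein of the presynaptic membrane, had 2019 in FS-stressed WT, 6394 in D2R-KO, 5016 in D2LR-KO and 4991 in non-stressed WT, and its partner Stx1a had 188 in FS-stressed WT and 128 in non-stressed WT. Of 16 synaptotagmins 2 were higher, Syt15 and Syt17, and of 17 postsynaptic scaffold genes 1 was higher, Nrgn, and 1 lower, Gphn. None of 9 sodium channel genes and 1 of 40 potassium channel genes, Kcnq3 (0.76), reached 1.5-fold. Of 21 calcium channel subunits, 4 were higher and 1 lower. Cacng2, stargazin, an auxiliary subunit of AMPA receptors, had 1007 in FS-stressed WT, 670.5 in D2R-KO, 444 in D2LR-KO and 512 in non-stressed WT, and Cacnb4 was at -0.97. Among 19 regulators of G protein signalling, Rgs2 was lower (-1.26) and Rgs8 (0.68) and Rgs10 (0.66) higher.

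**Figure D4:**
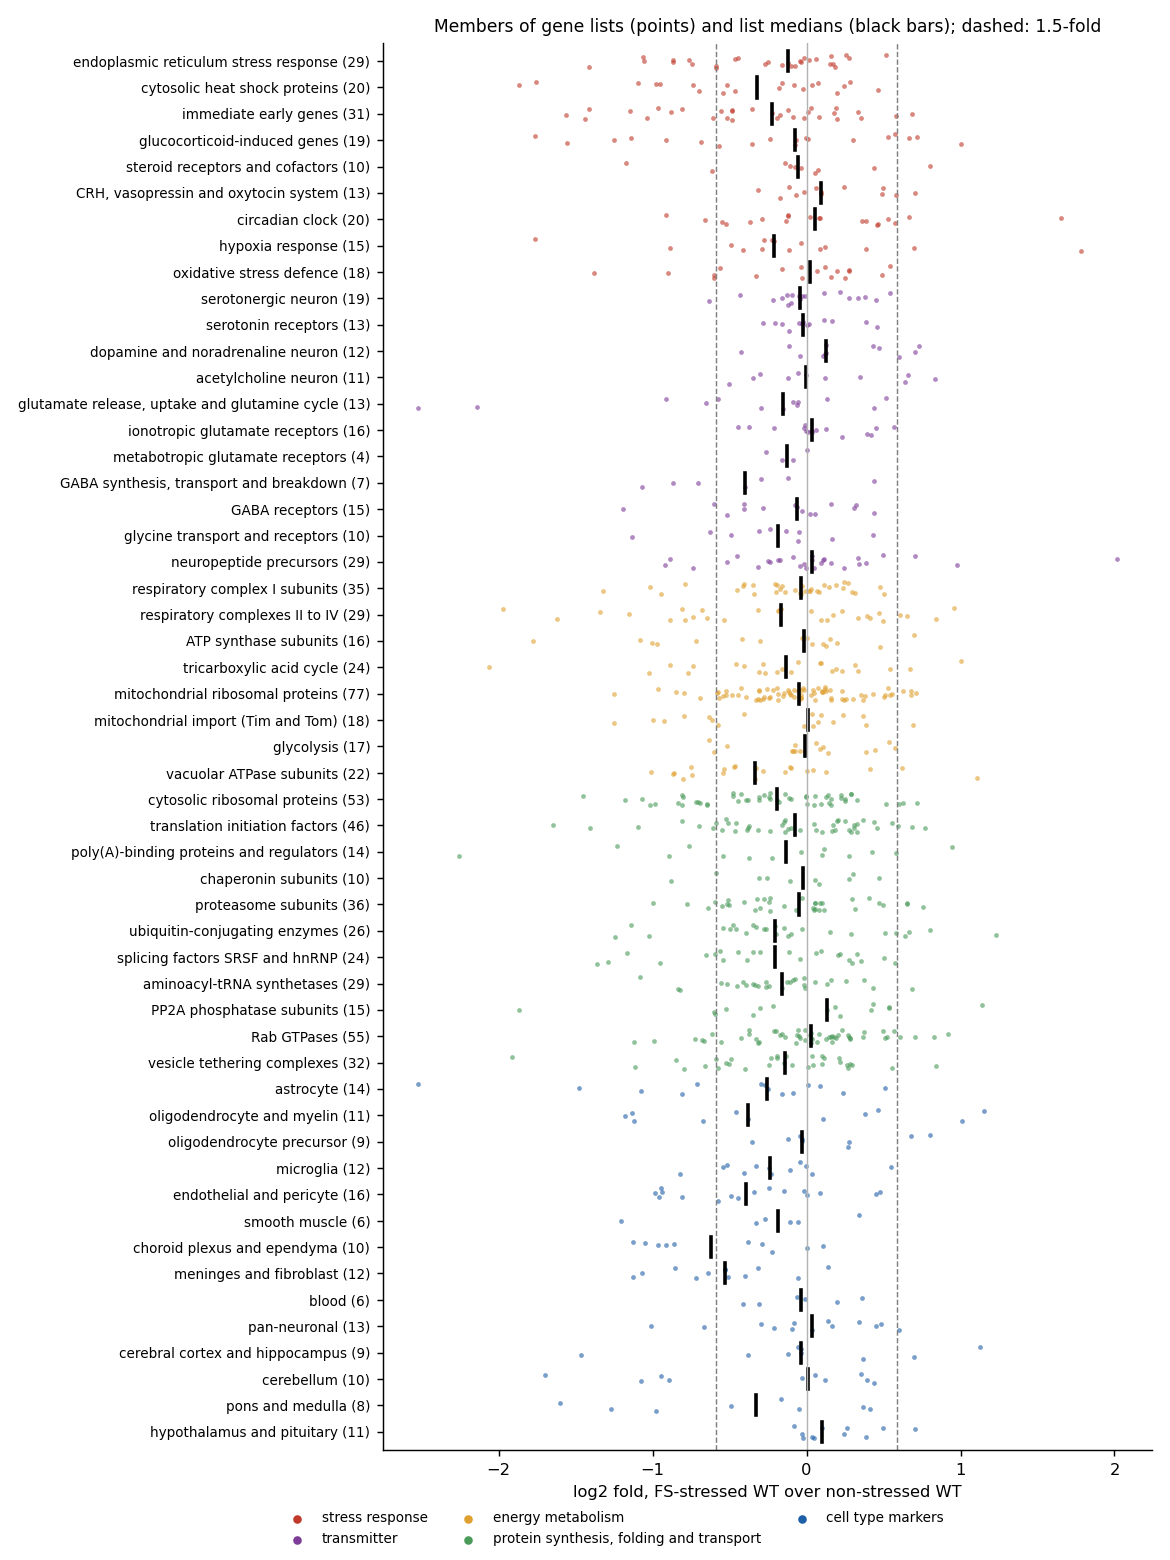
Log2 fold of FS-stressed WT over non-stressed WT (horizontal axis) for the members of gene lists (rows, with the number compared in brackets), each point 1 gene, black bars the list medians, and dashed lines 1.5-fold. The medians of choroid plexus and ependyma (-0.62) and of meninges and fibroblast (-0.53) lie farthest to the left, and most lists spread to both sides of 0.

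Astrocyte markers held 5 lower members of 14 (35.7%) and none higher. Among all genes 8.12% were lower and 7.27% higher, and among the brightest 3911 genes 17% and 16.1%. The list summed to 16646 in FS-stressed WT and 20519 in non-stressed WT, with a median of -0.26 that was 0.01 under local background. Gjb6, the gap junction protein connexin 30, had 306 in FS-stressed WT, 954 in D2R-KO, 788 in D2LR-KO and 1118 in non-stressed WT. Its partner connexin 43, Gja1, was at -1.08 and turned to 3.01 under local background. S100b, a calcium-binding protein, was at -0.71 and the receptor Ntsr2 at -0.81. Of 11 oligodendrocyte and myelin genes, 4 were lower (36.4%) and 2 higher (18.2%). Ugt8a, which makes myelin galactolipids, had 414 in FS-stressed WT and 1184 in non-stressed WT, and Trf, transferrin, had 1671 in FS-stressed WT and 4652 in non-stressed WT. Against these, Mag, myelin-associated glycoprotein, had 1001 in FS-stressed WT, 940.1 in D2R-KO, 972 in D2LR-KO and 562 in non-stressed WT, and Opalin had a log2 fold of 1.01. Markers of 1 cell type thus lay in both directions. Oligodendrocyte precursor genes had 2 of 9 higher, Sox10 and C1ql1, and none lower.

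Of 12 microglial markers, 1 was lower (8.33%), the protease Ctss (-0.82), and none higher. Among all genes 8.12% were lower, and among those at or above the median signal 15.1%. Of 16 endothelial and pericyte markers, 5 were lower (31.25%) and none higher. The list summed to 1720.1 in FS-stressed WT, 3470.0 in D2R-KO, 4368 in D2LR-KO and 3474 in non-stressed WT. The vascular growth factor receptor Flt1 had 204 in FS-stressed WT, 584 in D2R-KO, 436 in D2LR-KO and 511 in non-stressed WT, and the adhesion molecule Pecam1 had 12.7 in FS-stressed WT and 43 in non-stressed WT. The list median of -0.39 turned to 0.05 under local background. Of 6 smooth muscle genes, 1 was lower, Tagln, and none of 6 blood genes reached 1.5-fold. Of 13 pan-neuronal genes 2 were lower (15.4%) and 1 higher, and of 11 hypothalamic and pituitary genes 0 were lower and 1 higher. Of 10 cerebellar markers 4 were lower (40%) and 0 higher, with the granule neuron factor Neurod1 (-1.70) among the lower ones.

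Among genes detected on 1 of the WT arrays, the largest bounds belonged to immune genes, on the low side. Cxcl1, a chemokine that draws neutrophils, was not detected in FS-stressed WT and had 1.3 in D2R-KO, 2.6 in D2LR-KO and 152.9 in non-stressed WT, so it was at least 5.99-fold lower in FS-stressed WT. It was thus bright on the non-stressed array alone. The next bounds were at least 1.39-fold lower for the chemokine Cxcl2, 1.35-fold for Ms4a4c and 1.32-fold for Ccl2, and on the higher side no bound passed 1.14-fold, for Trarg1. Ch25h, which makes the oxysterol 25-hydroxycholesterol and is induced in immune activation, had 12.3 in FS-stressed WT, 11.1 in D2R-KO, 11 in D2LR-KO and 130.4 in non-stressed WT. Of 19 interferon response genes, 4 were lower, led by Ifit3 (-0.81) and Usp18 (-0.73), and 2 higher, Rsad2 (0.74) and Mx1 (0.59). Of 27 chemokines 3 were higher and 2 lower. Of 32 interleukin genes 2 were higher and 2 lower, with Il33, released by damaged cells, at -0.68 and Il31 at 1.24.

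The leading genes were chosen by size among genes that were bright, detected on both WT arrays and at least 1.5-fold different the same way in all 5 other settings. Of the 229 genes 2-fold higher, 161 met the rule on settings, and of 334 lower genes detected on both arrays and bright, 237 did. Rfpl4, a RING finger protein known from mouse oocytes, led the higher side with 519.8 in FS-stressed WT, 324 in D2R-KO, 219.5 in D2LR-KO and 128 in non-stressed WT (4.36-fold). Btla, an inhibitory receptor of lymphocytes, had 464 in FS-stressed WT, 192 in D2R-KO, 177 in D2LR-KO and 120.2 in non-stressed WT (4.1-fold). Several of the higher genes are little known in brain, such as these, Smr3a of salivary gland (2.66-fold) and the receptors of smell. Others act in neurons and in DNA upkeep. Ephb2, a receptor for ephrins at synapses, had 1736 in FS-stressed WT, 836 in D2R-KO, 829 in D2LR-KO and 715 in non-stressed WT (2.88-fold). The actin-binding synaptic protein Ppp1r9a, neurabin, was 2.72-fold higher, the microtubule-regulating kinase Mark4 3.03-fold and the glucose transporter Slc2a12 3.01-fold. Of nuclear proteins, Tdg, a DNA glycosylase of base excision repair, was 3.02-fold higher, the nuclease subunit Slx1b 3.66-fold, the transcription factor Pou2f1 2.7-fold, the RNA polymerase III factor subunit Gtf3c4 2.89-fold and the centromere protein Mis18a 2.72-fold.

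The lower side was led by Glul at 5.75-fold, with Sucla2 at 4.17-fold and Cox5a at 3.92-fold. Reep5, which shapes the endoplasmic reticulum, had 278 in FS-stressed WT, 1606 in D2R-KO, 1272 in D2LR-KO and 1301 in non-stressed WT. Ttc3, a ubiquitin ligase, had 697 in FS-stressed WT, 3642 in D2R-KO, 2264 in D2LR-KO and 3078 in non-stressed WT. In both genes the FS-stressed WT array alone was low. Further lower genes act in RNA handling, such as Ewsr1 (3.34-fold) and the paraspeckle protein Pspc1 (3.3-fold), and in protein tagging and breakdown, such as Uba3, of the enzyme that activates the ubiquitin-like protein NEDD8 (3.27-fold), and the lysosomal protease Ctsl (3.17-fold). Taldo1, transaldolase of the pentose phosphate pathway, was 3.22-fold lower and Glrx5, of mitochondrial iron-sulphur assembly, 3.19-fold lower. Neurod1 had another pattern, with 46.7 in FS-stressed WT, 78.2 in D2R-KO, 134 in D2LR-KO and 232 in non-stressed WT, so that all 3 arrays of swum mice lay below the non-stressed one, as for Ddit4, Ch25h and Cxcl1. Mfge8, which bridges dying cells to phagocytes, had 95.6 in FS-stressed WT, 252 in D2R-KO, 309 in D2LR-KO and 433 in non-stressed WT.

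**Figure D5:**
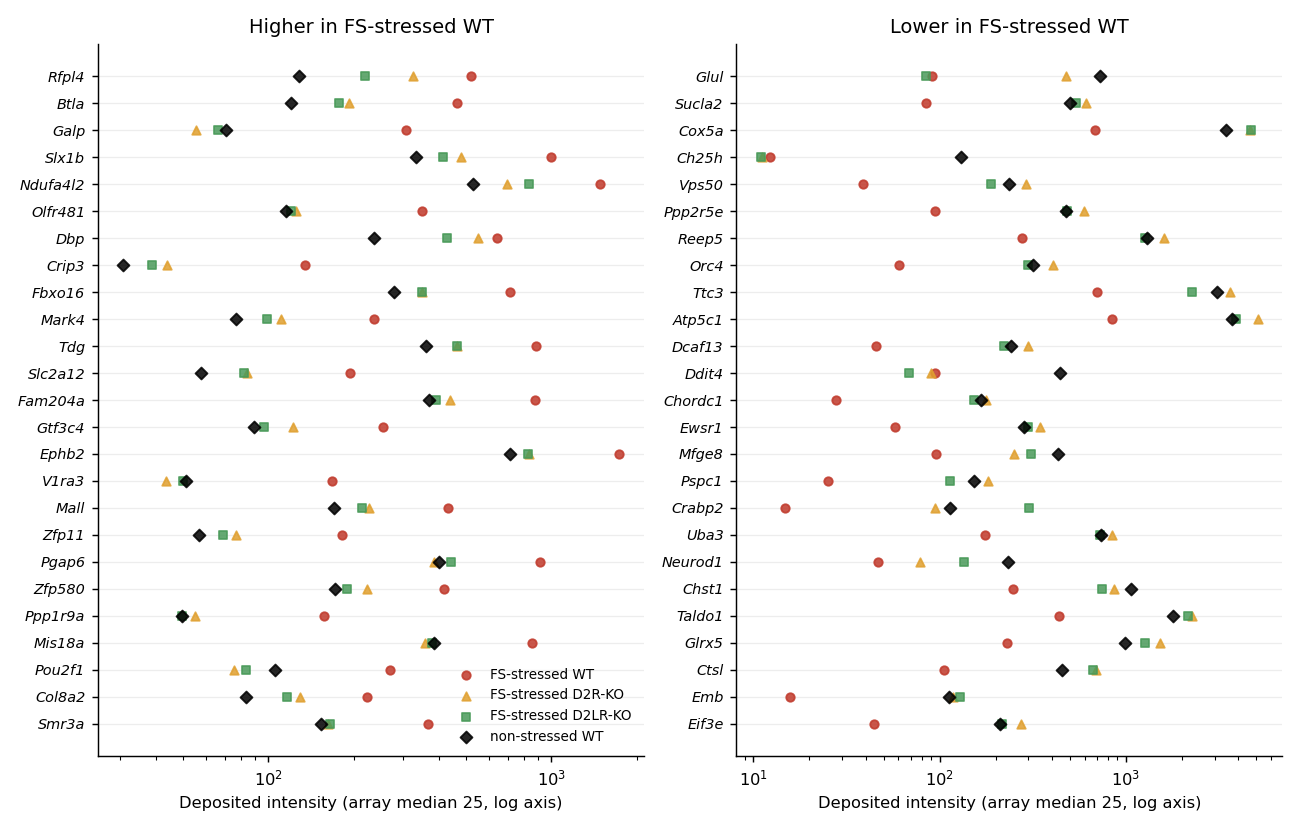
Deposited intensity (horizontal axis, log scale, array median 25) of the 25 leading genes higher (left) and lower (right) in FS-stressed WT, with 1 marker for each of the 4 arrays. For most genes the FS-stressed WT marker stands alone and the other 3 lie together; Glul is low in FS-stressed WT (90.6) and D2LR-KO (84.5), and Ch25h and Ddit4 are low on all 3 arrays of swum mice.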

How the data were processed

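RNA labelled as dorsal raphe nucleus, pooled from 5 mice a group, was measured on Toray single-colour arrays, 1 array per group. Per the labels' protocols, total RNA (Qiagen RNeasy) was amplified by the amino allyl method (Ambion MessageAmp II) and coupled to Cy5. Scans of 3 gains were taken of every array, per the file headers, and the sources used here do not say how they were joined. The scanner files hold, per the file headers, the median intensity at 635 nm of each spot and of its surroundings. The values deposited by the authors are linear intensity too: by comparison, the spot median minus 36.7 to 38.8, divided by 1.51 to 2.05, giving a median of 25 on each array, with 1499 to 1540 probes without a value per array.

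From the spot medians, background was corrected in R 4.3.3 with limma 3.58.1 (nec, blank spots as negative controls, offset 50), followed by log2 and quantile normalization over the 4 arrays. The blank spots were used because the brightness around a spot followed the spot itself (r = 0.876 to 0.958). Detection required a spot 2 SD above the mean blank (38.0 to 40.3, with spot medians of 67.1 to 80.1), which 21363 to 21496 of 23465 gene spots passed. Genes came from the series' probe table (16631 of 23473 probes with 1 symbol, 0 with several and 6842 unnamed here), with 3883 of 16446 symbols updated through RefSeq (GRCm38.p6) and 62 kept as given. The brightest probe stood for each of 229 genes with several, and 9 probes marked not usable were left out. Where a gene was detected on 1 array, a bound was also taken, against the lowest signal detected on the other array. Counts and list values used the plain fold for these genes too.

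Named genes were the 25 largest folds in each direction by the rule given in the text, the 5 largest bounds in each direction, the members of each list with the largest differences, and a few genes of serotonin and stress. Crh and Fev are not named by a probe here, and predicted symbols were left out of the leading genes. The members, lists and rules were chosen with earlier results of these data known. No test was possible with 1 array a group, 13 alternative settings were run (among them local background, the brightness around each spot in place of the blank spots), and the steps were checked on simulated data. Python 3.11.15 with numpy 2.4.6, pandas 2.3.3 and matplotlib 3.10.9 was used for the rest.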

Additional observations from a re-analysis of the deposited data

How the results depend on the processing

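The counts of 229 higher and 336 lower genes became 30 and 893 after median scaling, 1533 and 1756 with the values as deposited, 746 and 574 under local background, 488 and 695 with an offset of 16, and 120 and 186 with an offset of 100. They stayed within 1.5 times under the 8 other settings. Of 141 named genes called at 2-fold, 14 changed direction, all under local background: Rab14 to 3.95, Gja1 to 3.01, Dnajb4 to 1.81, Paip2 to 1.71, Il12b to 1.68, Ube2s to 1.35, Slc17a6 to 0.93, Sgk1 to 0.86, Dnajc7 and Cx3cl1 to 0.75, Cox6c to 0.69, Exoc5 to 0.61, Ndufb11 to 0.22 and Gpd1 to -0.29. Of 75 list medians, 21 had the other sign under local background and 35 under at least 1 setting. Among the 8 list medians farthest from 0, 1 changed direction, that of endothelial and pericyte genes, to 0.045. The cause was not tested. Over 7229 values of named genes under the alternatives, 5292 moved by less than the SD of repeated control spots (0.128) 1831 moved by more without changing direction, and 92 moved by more and changed direction in genes under 2-fold. No paired analysis was possible because each group is 1 pooled array without a replicate number. For dim genes the offset of 50 limits the fold that can be seen, and no gene in the dimmest 3 of 10 equal groups passed 2-fold.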

Other observations

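Cytoskeletal genes lay in both directions in FS-stressed WT against non-stressed WT. Of 12 tubulins, 1 was at least 1.5-fold higher and 1 lower. Tubb5, a beta tubulin, had a deposited intensity of 5637 in FS-stressed WT, 3032 in D2R-KO, 3035 in D2LR-KO and 3201 in non-stressed WT, and Tubb2b had a log2 fold of -0.62 (0.49 under local background). Of 20 actin cytoskeleton genes, 4 were lower and 2 higher. Arpc1b, a subunit of the Arp2/3 complex that branches actin filaments, had 38.8 in FS-stressed WT and 155 in non-stressed WT, while Pfn2, profilin of neurons, had 4426 in FS-stressed WT and 3549.6 in non-stressed WT. Of 35 kinesins, the motors of microtubules, 3 were lower, led by Kif5b (-0.68, but 3.14 under local background), and 1 was higher, Kif1a (0.71), with a list median of -0.01.

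Among all genes compared, 7.27% were 1.5-fold higher and 8.12% lower. Several families outside the nervous system's usual lists had shares near or below these. Keratin and histone genes had higher shares above 7.27%, but near the 14.2% of genes at or above the median signal. Of the histone genes compared 18 were at or above that signal, and of the keratin genes 6. Of 37 collagens 3 were higher (8.11%) and none lower, with Col8a2 at 222 in FS-stressed WT, 129 in D2R-KO, 116 in D2LR-KO and 83.5 in non-stressed WT. Of 27 keratin genes 4 were higher (14.8%) and 1 lower, with Krtap7-1, of hair, at 309.6 in FS-stressed WT and 142 in non-stressed WT. None of 20 defensin genes reached 1.5-fold, and none was at or above the median signal. Of 244 Zfp zinc finger genes 14 were higher (5.74%) and 10 lower (4.1%), with Zfp697 at 1.60 and Zfp68 at -1.03. Of 30 Hox genes 2 were higher and 2 lower (6.67% each), and of 29 histone genes 4 were higher (13.8%) and 2 lower (6.9%). Esr1, the oestrogen receptor alpha, was the 1 higher member of 10 steroid receptors and cofactors, with 49.2 in FS-stressed WT, 16.2 in D2R-KO, 19.2 in D2LR-KO and 18 in non-stressed WT, and Ncor1, a corepressor, was at -1.17.

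Promoter composition went with the folds to a small extent, as a description over genes, which are not replicates. Among the 81.3% of brighter genes with a promoter window, those with 0 to 13 CpG had a median log2 fold of 0.11, and 4.97% of them were 2-fold higher and 4.54% lower. With 30 to 64 CpG the median was -0.04, with 2.18% higher and 4.30% lower. The part of tissue and of the array in this was not tested.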
